A study of Mus musculus with 70 samples.

Results

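CD8 is made of an alpha chain, encoded by Cd8a, and a beta chain, encoded by Cd8b1. Both genes were followed through 70 RNA-seq libraries of dendritic cells and monocytes sorted from the spleens of mice aged 8 to 10 weeks, killed 5 h after an intraperitoneal injection of PBS. The members are 2 of the 24435 genes of the deposited table of expected counts, and their transcripts were summed per gene. They were selected on measured values of these libraries, the cDC1 level of Cd8a and the strain difference of Cd8b1 in pDC, so cell type levels and pDC strain differences are given as descriptions, with no test. The NOD groups held 6 libraries of type 1 conventional dendritic cells (cDC1), 6 of type 2 (cDC2), 5 of monocyte-derived dendritic cells (moDC), 3 of plasmacytoid dendritic cells (pDC) and 3 of monocytes. The B6g7 groups held 6, 6, 6, 3 and 3 libraries of these types. NOD Rag1-/- mice gave 3 libraries each of cDC1, cDC2, moDC and pDC, and B6 Rag1-/- mice gave 3 of each except moDC, with 2. NOD mice develop autoimmune diabetes spontaneously, B6g7 (C57BL/6.g7) mice have the C57BL/6 background with the g7 MHC of NOD, and Rag1-/- mice make no mature T or B cells. The Rag1-/- controls are labelled B6, not B6g7, so that pair also differs in the MHC. The count table heads the cDC1 columns with CD8a, the cDC2 columns with 33D1 and the monocyte columns with Ly6C+, so cDC1 were apparently sorted on CD8a, and a gene used for the sort is no finding between cell types.

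CD8 is best known as the coreceptor of cytotoxic T cells, where an alpha-beta pair binds MHC class I and the alpha chain brings the kinase Lck to the T cell receptor. The beta chain reaches the cell surface only as the partner of an alpha chain. Mouse splenic cDC1, the cells that cross-present antigen to CD8+ T cells, carry CD8 as a pair of alpha chains, which has long served as their surface marker, and part of the mouse pDC, the main source of type I interferon, carry the alpha chain too.

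Library totals lay between 12.8 M and 20.6 M expected counts, with a median of 16.3 M. All 23 Rag1-/- libraries belong to sequencing run 1 and came from 6575 to 14529 cells, and all 47 Rag-sufficient libraries belong to run 2 and came from 537 to 5000 cells, so differences between the sets cannot be told apart from run, cell number or sort date. The labels do not say whether libraries of a group came from separate animals, so p-values measure the spread between these libraries, which may be technical. Rag1 had counts in 23 of 23 Rag1-/- libraries, at 2 to 44 counts, and in 5 of 47 Rag-sufficient libraries, at up to 6 counts. These counts do not show which part of the gene they came from and do not check the deletion. Xcr1, a chemokine receptor of cDC1, averaged 1089 CPM in NOD and 898 CPM in B6g7 cDC1 and at most 4.66 CPM in any pDC group, and Siglech, a lectin of pDC, averaged 7366 CPM in NOD and 7688 CPM in B6g7 pDC. CPM is the usual depth-scaled count, here from expected counts and scaled by the trimmed mean of M values (TMM) over all 70 libraries.

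Both genes lie on mouse chromosome 6 of GRCm38 on the plus strand, Cd8b1 at chr6:71322788-71337492 and Cd8a at chr6:71373427-71379171, with 35.9 kb between them. The table lists 1 Cd8b1 transcript (NM_009858, 1483 bases) and 2 Cd8a transcripts, NM_001081110 with 5 exons (3128 bases) and NM_009857 with 4 exons (2975 bases). The second lacks exon 4, of 31 bases, at chr6:71375888-71375918. The start of the cytoplasmic tail, with the motif that binds Lck, is known to be encoded there, and the shorter form is known as the tailless alpha prime chain. The sequences below, from GENCODE vM21 on GRCm38, show where the forms differ, with 20 bases of exon 3 before the junction and 20 bases of exon 5 after it. Capitals mark exon 4 in the upper sequence and, in the lower one, the stop codon that comes into frame when exon 4 is left out.
Cd8a with exon 4: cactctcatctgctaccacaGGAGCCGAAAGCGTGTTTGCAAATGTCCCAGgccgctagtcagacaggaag
Cd8a without exon 4: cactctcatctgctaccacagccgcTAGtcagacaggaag
Exon 4 is not a multiple of 3 bases long. With it the annotated reading frame runs on for 49 bases of exon 5 and has 247 codons before the stop, and without it the frame ends after 5 bases of exon 5 with 222 codons. The annotated transcripts also differ by 126 bases at the 5′ end and by 4 bases at the 3′ end, so counts split between them rest partly on these ends.

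Cd8a was highest in cDC1 of every strain, next in pDC, and low elsewhere. In cDC1 it lay between 635 and 1300 CPM in NOD (median 949 CPM, n = 6) and between 719 and 1846 CPM in B6g7 (median 1332 CPM, n = 6). In Rag1-/- mice, cDC1 held 354, 545 and 615 CPM in NOD Rag1-/- mice and 740, 786 and 831 CPM in B6 Rag1-/- mice. In pDC the Cd8a level was 68.6, 101 and 123 CPM in NOD, against 229, 312 and 385 CPM in B6g7. Every pDC group thus lay below the cDC1 group of its own strain, with no overlap. Mean levels in moDC were 16.6 CPM in NOD, 8.85 CPM in B6g7, 2.51 CPM in NOD Rag1-/- and 13.7 CPM in B6 Rag1-/- mice. Those in cDC2 were between 1.67 and 4.55 CPM over the 4 strains, and monocytes averaged 0.711 CPM in NOD and 0.331 CPM in B6g7. In the order of the 18 group means, the levels broke without overlap only below B6 Rag1-/- cDC1, B6 Rag1-/- pDC, NOD pDC and NOD Rag1-/- pDC, and all other neighbours overlapped.

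Cd8b1 had another order, led by pDC of the C57BL/6 strains. NOD pDC came next after these, at 32.8 ± 6.59 CPM, and stood apart below B6g7 pDC at 1090 ± 298 CPM and B6 Rag1-/- pDC at 725 ± 322 CPM (SD, n = 3 each), which overlapped each other. NOD Rag1-/- pDC averaged 15.1 CPM, NOD cDC1 8.13 CPM, NOD moDC 6.69 CPM and B6g7 cDC1 23.7 CPM. From NOD pDC down the order was B6g7 cDC1, NOD Rag1-/- pDC, NOD cDC1 and NOD moDC, with neighbours that overlapped. Every other group averaged under 5 CPM. In bulk libraries such as these, fewer cells that express a gene and less RNA per cell cannot be told apart.

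**Figure D1:**
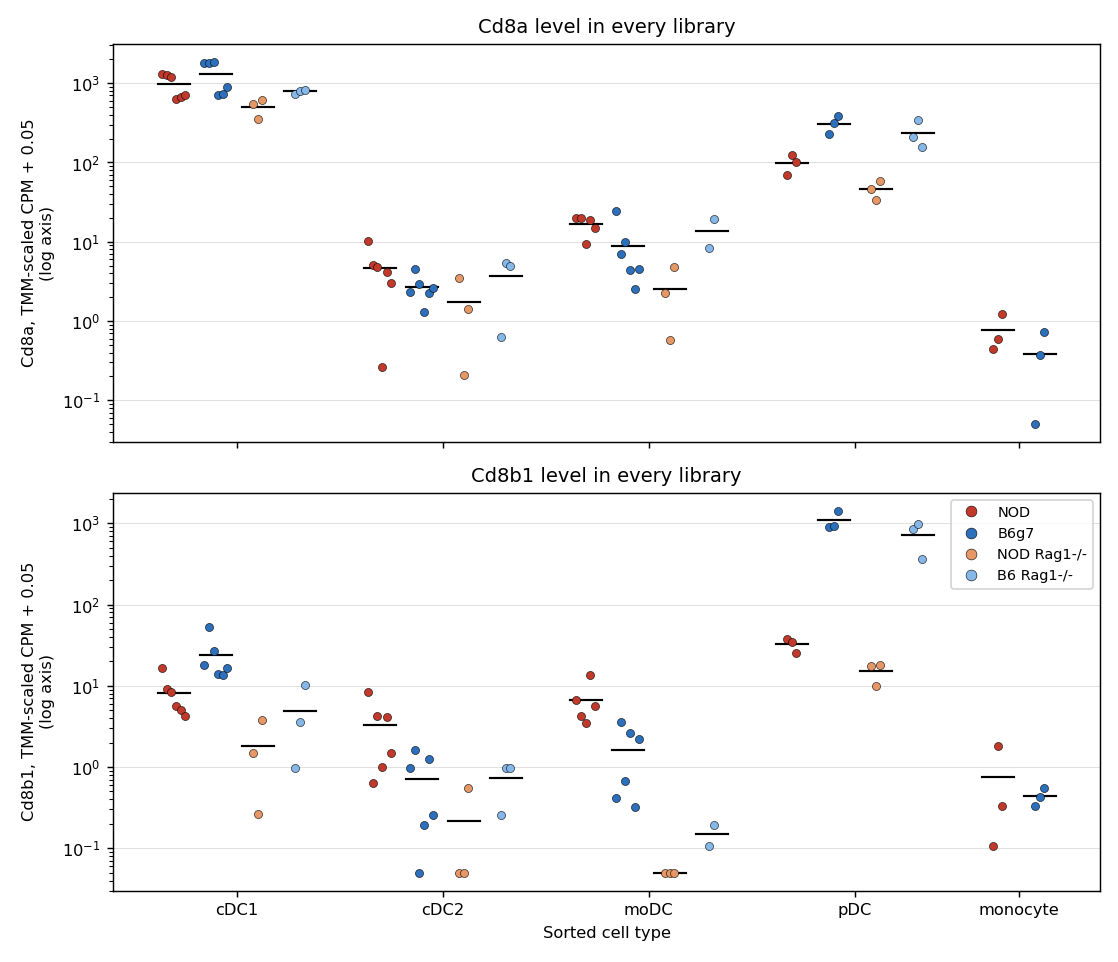
Cd8a (upper panel) and Cd8b1 (lower panel) in each of the 70 libraries as TMM-scaled CPM plus 0.05 on a log axis, by sorted cell type, with strains by colour from left to right and a bar at the group mean. Cd8a is highest in cDC1 of all 4 strains, and Cd8b1 is at 360 CPM or more only in pDC of B6g7 and B6 Rag1-/- mice.

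Cd8b1 was the gene with the wide strain difference in pDC. It was counted at 25.4, 35.0 and 38 CPM in NOD pDC, against 903, 933 and 1434 CPM in B6g7 pDC. The lowest B6g7 library lay far above the highest NOD library. The ratio of means was 33.2 (B6g7 over NOD), and the log2 change of NOD against B6g7 was -5.02 ± 0.60 (SE). In pDC of Rag1-/- mice, Cd8b1 was at 9.82, 17.6 and 18 CPM in NOD Rag1-/-, against 360, 844 and 970 CPM in B6 Rag1-/-. Here too the groups did not overlap, with a 47.9-fold ratio of B6 over NOD and a log2 change of -5.60 ± 0.98 (SE). The depth behind these values was 314 to 513 counts per NOD library and 11077 to 17374 per B6g7 library, so counting error is small beside the difference. Cd8a differed in the same direction and less, with a 3.17-fold ratio of B6g7 over NOD in Rag-sufficient and a 5.14-fold ratio of B6 over NOD in Rag1-/- pDC, and log2 changes of -1.64 ± 0.42 and -2.38 ± 0.77 (SE). In Rag1-/- pDC it was at 33.6, 46.1 and 59.1 CPM in NOD, against 158, 211 and 345 CPM in B6. Over all genes, edgeR's quasi-likelihood test called 12.6% of 13413 genes in the Rag-sufficient pDC comparison and 4.58% of 13137 in the Rag1-/- one. In the authors' deposited tables the log2 fold change of Cd8b1 in pDC is -4.88 for NOD against B6g7 and -4.81 for NOD Rag1-/- against B6 Rag1-/-.

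T cells carry the same subunits, so the Cd3 genes, which encode the invariant chains of the T cell receptor, were read beside Cd8b1. In pDC the summed level of Cd3d, Cd3e and Cd3g was 0.148 to 10.1 CPM in NOD and 4.36 to 8.80 CPM in B6g7. Cd8b1 was 2.96 and 3.45 times that sum in the NOD pDC libraries with at least 3 Cd3 counts, and 103 to 214 times it in B6g7 pDC. In Rag1-/- pDC the ratio was 3.16 to 6.70 in NOD Rag1-/- and 142, 388 and 2663 in B6 Rag1-/-, with the highest from a library of 3 Cd3 counts. Cd3e had no count in 22 of the 23 Rag1-/- libraries, and in all 3 B6 Rag1-/- pDC libraries it was at 0 while Cd8b1 was at 360 CPM or more. The ratio between strains was as large in the Rag1-/- pDC as in Rag-sufficient pDC. Cd3e was at 0 in 5 of 6 Rag1-/- pDC libraries and at 16 counts in a NOD library. Cd3d and Cd3g averaged 1.37 and 1.53 CPM in NOD Rag1-/- and 1.67 and 1.19 CPM in B6 Rag1-/- pDC. The Cd3 sum there was 2.62 to 3.74 CPM in NOD Rag1-/- and 0.135 to 5.96 CPM in B6 Rag1-/-. The list of 20 T cell markers summed to 422 to 514 CPM in NOD and 309 to 358 CPM in B6g7 pDC, largely from Il7r, the interleukin-7 receptor, and Cd28, which pDC also express. Its 8 defining markers summed to 7.71 to 20.1 CPM in NOD and 9.83 to 15.6 CPM in B6g7 pDC. Themis and Trat1 were at 0 in every NOD library and Themis at 0 in every B6g7 library. Cd5, which is among the 8, averaged 8.48 CPM in NOD and 5.21 CPM in B6g7 pDC. It also averaged 26.1 CPM in NOD Rag1-/- cDC2, so these sums do not measure T cells alone. In Rag1-/- pDC the defining markers summed to 8.02 to 11.4 CPM in NOD and 4.5 to 10.8 CPM in B6. The 12 pDC markers were lower in NOD as a sum, at 20865 to 24135 CPM in NOD and 33302 to 36594 CPM in B6g7. Ly6c2, at 1324 CPM in NOD and 8540 CPM in B6g7, and Ly6d, at 520 and 5568 CPM, had the widest gaps. Bst2 (4205 CPM in NOD, 3852 CPM in B6g7) and Klk1 (4380 and 3473 CPM) were higher in NOD. The other pDC markers were lower by less, among them Siglech, at 7366 CPM in NOD and 7688 CPM in B6g7. The 8 erythroid markers were higher in NOD, at 1734 to 3292 CPM in NOD and 33.3 to 591 CPM in B6g7. In NOD Rag1-/- pDC the pDC markers summed to 10146 to 22583 CPM, with a median of 11689 CPM. In B6 Rag1-/- pDC they summed to 16641 to 66361 CPM, with a median of 56208 CPM. The erythroid markers summed to 4612 to 28945 CPM in NOD Rag1-/- and 1934 to 8000 CPM in B6 Rag1-/- pDC. Both pairs of Rag1-/- ranges overlapped. The part of these markers in the Cd8 values of pDC was not tested.

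**Figure D2:**
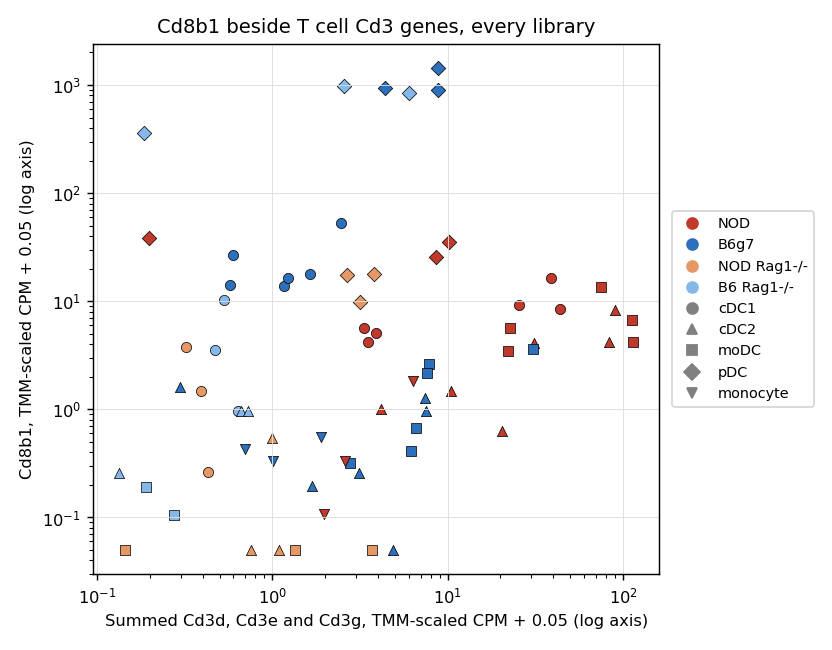
Cd8b1 against the summed level of Cd3d, Cd3e and Cd3g in each library, both as TMM-scaled CPM plus 0.05 on log axes, with strain by colour and cell type by marker. NOD moDC and cDC2 reach Cd3 sums of 114 and 89.5 CPM with at most 13.6 CPM of Cd8b1, whereas B6g7 and B6 Rag1-/- pDC lie at 360 CPM of Cd8b1 or more at Cd3 sums of at most 8.80 CPM.

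The balance of the subunits was compared per kb of transcript, so that gene length does not enter. In pDC the Cd8b1 level over the Cd8a level was 0.750 ± 0.341 in NOD and 7.31 ± 1.02 in B6g7 (SD, n = 3 each). In Rag1-/- pDC it was 0.670 ± 0.0989 in NOD and 6.24 ± 1.80 in B6. The beta chain transcript thus exceeded the alpha chain transcript in pDC of the C57BL/6 strains and, on average, not in pDC of NOD. In cDC1 it stayed far below the alpha chain in every strain, at 0.0168 ± 0.00486 of it in NOD and 0.0380 ± 0.0133 in B6g7 (SD, n = 6 each), and at 0.00633 in NOD Rag1-/- and 0.0123 in B6 Rag1-/-.

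**Figure D3:**
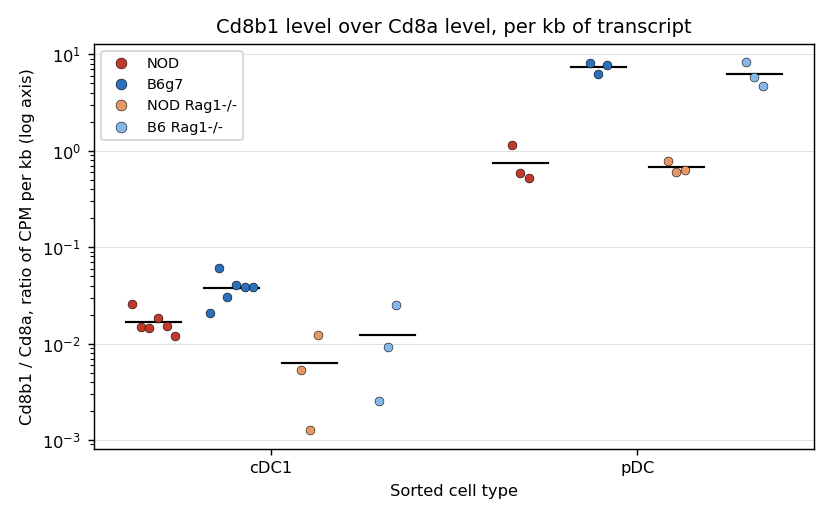
Ratio of the Cd8b1 level to the Cd8a level, each as CPM per kb of transcript, in every cDC1 and pDC library on a log axis, with strains by colour and bars at the group means. All 6 pDC libraries of the C57BL/6 strains lie at 4.70 or more, and all cDC1 libraries lie at 0.0606 or less.

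The strain contrast in cDC1 was not used to choose the genes. There Cd8b1 fell in NOD, and Cd8a did not pass the test. Cd8b1 lay between 4.19 and 16.4 CPM in NOD (median 7.05 CPM) and between 13.7 and 53.3 CPM in B6g7 (median 17.1 CPM). The groups overlapped over all dates, but not within a sort date. On 10.26.2015 the Cd8b1 levels were 8.45, 9.12 and 16.4 CPM in NOD and 17.8, 27 and 53.3 CPM in B6g7, and on 01.05.2016 they were 4.19, 5.00 and 5.64 CPM in NOD and 13.7, 14.0 and 16.5 CPM in B6g7. With the sort date in the model, Cd8b1 fell in NOD cDC1 by a log2 change of -1.52 ± 0.41 (SE, edgeR quasi-likelihood test, adjusted p = 0.0064). Without the date term the change was -1.51, with an adjusted p of 0.11, and each date alone gave -1.47 (adjusted p = 0.34) and -1.58 (adjusted p = 0.13). So 1 of the 2 genes passed, in a comparison in which 20.4% of 13413 genes did, 8.94% as lower in NOD. In Rag1-/- cDC1, Cd8b1 was at 0.216, 1.42 and 3.70 CPM in NOD and 0.912, 3.50 and 10.2 CPM in B6. These overlapped, and the log2 change of -1.47 ± 0.89 did not pass (SE, edgeR, adjusted p = 0.75).

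The Cd8a level of cDC1 differed more between dates than between strains. On 10.26.2015 it was 1188, 1278 and 1300 CPM in NOD and 1777, 1812 and 1846 CPM in B6g7, and on 01.05.2016 it was 635, 679 and 711 CPM in NOD and 719, 735 and 886 CPM in B6g7. Every NOD library was lower than every B6g7 library of its date. The log2 change was -0.34 ± 0.29 (SE, edgeR, adjusted p = 0.46) in the fit over all Rag-sufficient libraries, which share an estimate of the spread. Fitted on cDC1 alone, the same change of -0.34 had an SE of 0.06 and an adjusted p of 0.00034. In Rag1-/- cDC1 the change was -0.65 ± 0.73 (SE, edgeR, adjusted p = 1), with the 3 NOD libraries below the 3 B6 libraries, and 1.67% of 13137 genes passed in that comparison. With the replicate number as a block, which pairs libraries of Rag1-/- cDC1 sorted together, that comparison called 88 genes in place of 219.

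Transcripts of other cells were present in the cDC1 libraries. In NOD cDC1, 12 of 20 T cell markers, 8 of 10 B cell markers and 8 of 8 erythroid markers were higher than in B6g7 cDC1 and none was lower. Over all 13413 genes, 1540 were called higher and 1199 lower in NOD cDC1. The T cell markers summed to 37.3 to 146 CPM in NOD and 13 to 36.7 CPM in B6g7. The Cd8b1 level was 0.195 to 1.73 times the Cd3 sum in NOD cDC1 and 11.2 to 49.5 times it in B6g7 cDC1. The pDC markers summed to 338 to 568 CPM in NOD and 463 to 738 CPM in B6g7, and of these 12 markers 1 was higher and 3 were lower. As a share of the pDC level of the same strain, Cd8b1 in cDC1 was 24.8% in NOD and 2.17% in B6g7. The 12 pDC markers had shares of 0.0227% to 22.8% in NOD (median 3.21%) and 0.0111% to 30.3% in B6g7 (median 2.56%). What RNA of these cells contributed to the Cd8b1 level of cDC1 was not tested.

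In cDC2 and moDC the strain difference of Cd8b1 ran the other way, higher in NOD. In cDC2 it lay between 0.582 and 8.24 CPM in NOD (median 2.73 CPM) and between 0 and 1.55 CPM in B6g7 (median 0.557 CPM). The groups overlapped, and the log2 change was 2.16 ± 0.64 (SE, edgeR, adjusted p = 0.012). Without NOD replicate 1 it was 1.71 (adjusted p = 0.073). Cd8a in cDC2, at 0.211 to 10.2 CPM in NOD and 1.25 to 4.52 CPM in B6g7, did not pass (0.71 ± 0.39, SE, edgeR, adjusted p = 0.21), and without NOD replicate 4, its lowest library, it passed (0.97, adjusted p = 0.04). Of all genes, 11.8% were called higher in NOD cDC2. In moDC, Cd8b1 was 3.42, 4.15, 5.66, 6.63 and 13.6 CPM in NOD, and it lay between 0.272 and 3.55 CPM in B6g7 (median 1.38 CPM). All but 1 of the B6g7 libraries lay below every NOD library, and the log2 change was 2.10 ± 0.55 (SE, edgeR, adjusted p = 0.0033). Cd8a rose in moDC too, by 1.28 ± 0.35 (SE, edgeR, adjusted p = 0.0052), at 9.28 to 20.1 CPM in NOD and 2.50 to 24.7 CPM in B6g7. Here 30.4% of genes were called. Without the date term the Cd8a change in moDC was 0.93 (adjusted p = 0.28), and on 10.26.2015 alone it was 0.57 (adjusted p = 0.40).

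T cell transcripts moved with these calls. In NOD cDC2, 15 of 20 T cell markers were higher and 1, Tcf7, was lower, and in NOD moDC 15 of 20 were higher. Over all 13413 genes, 1581 were called higher and 1368 lower in cDC2, and 2148 higher and 1923 lower in moDC. The Cd3 sum was 4.11 to 89.5 CPM in NOD and 0.248 to 7.48 CPM in B6g7 cDC2, and 22.1 to 114 CPM in NOD and 2.72 to 30.5 CPM in B6g7 moDC. Relative to that sum, Cd8b1 was 0.0286 to 0.231 in NOD and 0 to 6.25 in B6g7 cDC2 (median 0.105, with the highest from a library of 4 Cd3 counts), and 0.0363 to 0.249 in NOD and 0.0597 to 0.326 in B6g7 moDC. In both cell types the ratios of the strains overlapped. The 3 NOD cDC2 libraries of highest T cell marker sum also had the highest Cd8b1 levels of their group, at 4.04, 4.15 and 8.24 CPM. B cell markers were higher in 7 of 10 in cDC2 and 9 of 10 in moDC, and all 8 erythroid markers in both. In moDC, 8 of 13 cDC1 markers were higher and 1 was lower, and they summed to 1012 to 1980 CPM in NOD and 738 to 792 CPM in B6g7. Their part in the Cd8a change was not tested.

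In Rag1-/- mice neither gene passed in cDC2 or moDC. The Cd8b1 counts were 0, 0 and 9 in NOD Rag1-/- cDC2 and 5, 18 and 19 in B6 Rag1-/- cDC2, with a log2 change of -2.19 ± 1.30 (SE, edgeR, adjusted p = 0.55). In moDC the gene had 0 counts in all 3 NOD Rag1-/- libraries, which allows up to 0.0510 CPM over the group, and 1 and 3 counts in B6 Rag1-/-, so no fold is given. Cd8a in moDC was at 0.518, 2.23 and 4.78 CPM in NOD Rag1-/- and 8.34 and 19.1 CPM in B6 Rag1-/-. These did not overlap, and the log2 change of -2.45 ± 0.85 did not pass (SE, edgeR, adjusted p = 0.22), in a comparison that called 1.49% of 13137 genes. In Rag1-/- cDC2, where 2.34% were called, Cd8a changed by -1.11 ± 0.80 (SE, edgeR, adjusted p = 0.72). The sign in both cell types was opposite to that in Rag-sufficient mice, and the difference between the sets was not tested. In monocytes, Cd8a (1.07 ± 1.02, adjusted p = 0.55) and Cd8b1 (0.88 ± 1.28, adjusted p = 0.72) did not pass in edgeR, at levels of at most 1.79 CPM, and 15.3% of genes did.

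**Figure D4:**
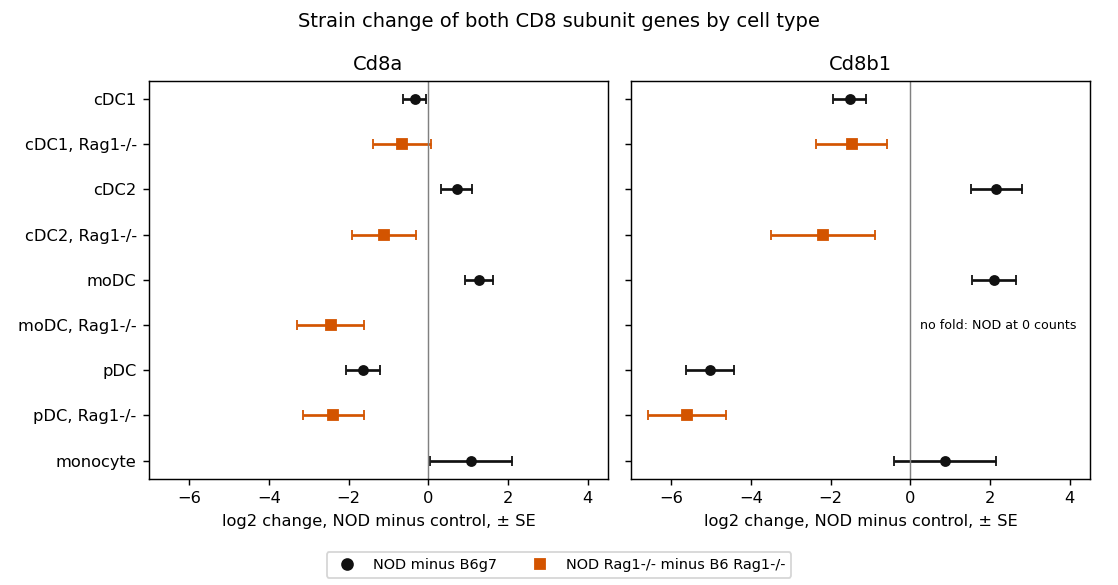
Log2 change of Cd8a (left) and Cd8b1 (right), NOD minus control, with standard errors from the edgeR fits, for each cell type of the Rag-sufficient (black circles) and Rag1-/- (orange squares) sets. Cd8b1 is at -5.02 and -5.60 in pDC and above 2 in Rag-sufficient cDC2 and moDC, and no fold is shown where NOD Rag1-/- moDC have 0 counts.

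The strain effect on Cd8b1 differed between cell types by the test of the difference itself, which was added after its values were seen. The effect in cDC1 minus that in cDC2 was -3.68 ± 0.76 on the log2 scale (SE, edgeR, adjusted p = 0.0015; 5.71% of genes called), and that in cDC1 minus that in moDC was -3.62 ± 0.68 (adjusted p = 0.00041; 8.36% called). The effects in cDC2 and moDC differed by 0.06 ± 0.89 (SE, edgeR, adjusted p = 0.99; 5.84% called). For Cd8a, cDC1 differed from moDC by -1.62 ± 0.45 (SE, edgeR, adjusted p = 0.020). With the replicate block that difference was -1.47, with an adjusted p of 0.088. Cd8a in cDC1 against cDC2 (-1.05 ± 0.49, adjusted p = 0.23) and in cDC2 against moDC (-0.57 ± 0.53, adjusted p = 0.63) did not pass.

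The split of Cd8a counts between its transcripts, which the choice of the genes did not use, differed between strains in cDC1. The transcript without exon 4 took 41.7% to 46.5% of the Cd8a counts in NOD cDC1 and 35.5% to 40.1% in B6g7 cDC1. Every NOD library was above every B6g7 library. The means were 43.8% ± 2.1 in NOD and 37.3% ± 1.6 in B6g7 (SD, n = 6 each), a difference of 6.5 percentage points (two-sided exact permutation test, p = 0.00216, the smallest that these numbers of libraries can give; adjusted p = 0.0108 over 5 comparisons). That test permuted libraries across sort dates and did not take the date into account. The order held on each sort date, with means of 45.5% in NOD and 38.4% in B6g7 on 10.26.2015 and 42.0% in NOD and 36.2% in B6g7 on 01.05.2016. In Rag1-/- cDC1 the share was 40.6%, 41.7% and 42.1% in NOD and 30.1%, 31.1% and 35.1% in B6. These did not overlap either, and with 3 libraries each the exact permutation test cannot go below p = 0.1, the value it gave (adjusted p = 0.25).

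In level, the means of the form with exon 4 lay further apart between the strains in cDC1 than those of the form without it. The form with exon 4 averaged 538 ± 163 CPM in NOD and 807 ± 342 CPM in B6g7, while the form without exon 4 averaged 428 ± 159 CPM in NOD and 489 ± 227 CPM in B6g7 (SD, n = 6 each). In Rag1-/- cDC1 the form with exon 4 averaged 295 CPM in NOD and 534 CPM in B6, and the form without it 210 CPM in NOD and 252 CPM in B6. In the authors' deposited tables the log2 fold change in cDC1 is -0.41 with exon 4 and -0.08 without it for NOD against B6g7, and -0.84 and -0.25 with and without exon 4 for NOD Rag1-/- against B6 Rag1-/-. In pDC, given as a description, the share without exon 4 was 40.2%, 41.8% and 47.9% in NOD and 37.7%, 38.6% and 40.5% in B6g7, which overlap. In Rag1-/- pDC it was 41.5%, 52.8% and 57.0% in NOD and 32.5%, 38% and 39.3% in B6, with no overlap. Shares in moDC averaged 43.0% in NOD and 29.6% in B6g7 (exact permutation p = 0.195, adjusted p = 0.325), and in cDC2 31.5% in NOD and 41.6% in B6g7 (exact permutation p = 0.595, adjusted p = 0.595), each from libraries with few Cd8a counts. Without B6g7 replicate 2 the moDC difference was 19.7 points (exact permutation test, adjusted p = 0.04). In Rag1-/- moDC, with 2 libraries of each strain at 30 counts or more, they were 25.9% and 36.9% in NOD and 21.7% and 22.1% in B6 (exact permutation p = 0.333, the smallest possible, adjusted p = 0.417). The counts are estimates that divide reads between transcripts sharing most of their sequence.

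**Figure D5:**
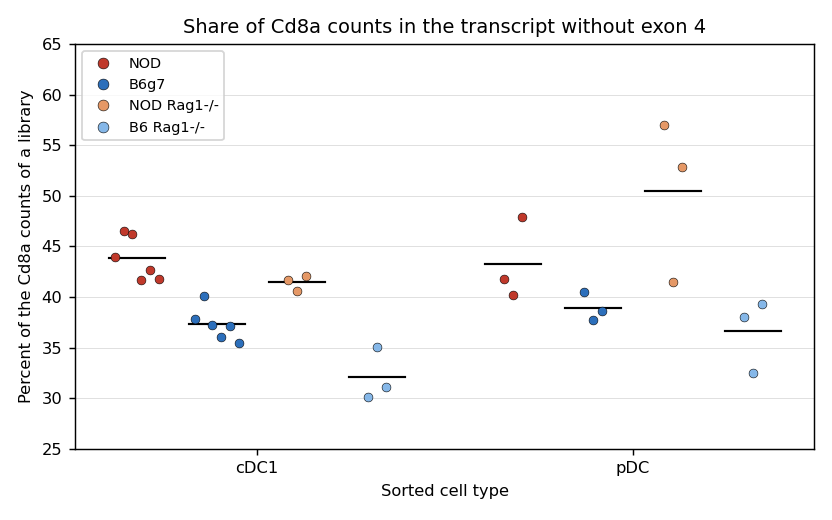
Percent of the Cd8a expected counts assigned to the transcript without exon 4 in each cDC1 and pDC library, with strains by colour and bars at the group means; the axis starts at 25%. In cDC1 all 6 NOD libraries lie above all 6 B6g7 libraries, and all 3 NOD Rag1-/- libraries lie above all 3 B6 Rag1-/- libraries.

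Of 20 genes of the coreceptor pathway, 9 were higher and 2 lower in NOD cDC1 (median log2 change 0.50, against 0.02 over all genes), 10 higher and 3 lower in cDC2 (0.28 against 0.00), 7 higher and 7 lower in moDC (0.02 against 0.01), and 1 higher and 5 lower in monocytes (-0.24 against 0.00). Of all genes, 20.4% were called in cDC1, 11.8% as higher and 10.2% as lower in cDC2, 30.4% in moDC and 15.3% in monocytes. Most of the genes that rose in cDC1, cDC2 and moDC are also on the T cell marker list, such as Lck, the kinase that CD8 binds, at 10.5 CPM in NOD and 1.36 CPM in B6g7 cDC1 (2.68 ± 0.74, SE, edgeR, adjusted p = 0.007). Cd4, the coreceptor for MHC class II, also rose in NOD cDC1, at 37.5 ± 6.75 CPM in NOD and 16.4 ± 6.01 CPM in B6g7 (SD, n = 6 each), by 1.24 ± 0.13 (SE, edgeR, adjusted p = 1.67e-10). It fell by 0.64 ± 0.13 in NOD moDC (SE, edgeR, adjusted p = 0.00011). Lcp2, the adaptor SLP-76 downstream of the T cell receptor and of myeloid receptors, fell in all 7 tested comparisons, for example at 52 CPM in NOD and 132 CPM in B6g7 cDC1 (-1.37 ± 0.14, SE, edgeR, adjusted p = 1.70e-10). In the Rag1-/- set 19 of the list were tested, and 2 fell in cDC1, 2 in cDC2 and 3 in moDC. In these comparisons 1.67%, 2.34% and 1.49% of 13137 genes were called. Among the genes that fell was H2-K1, a class I heavy chain that CD8 can bind. In cDC1 it was at 673 CPM in NOD and 2247 CPM in B6 (-1.75 ± 0.30, SE, edgeR, adjusted p = 0.0019). In Rag-sufficient cDC1, where B6g7 is the control, H2-K1 rose by 0.29 ± 0.08 (SE, edgeR, adjusted p = 0.0049). The class I genes are near copies of each other and differ between haplotypes, so their counts are uncertain.

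The list of 23 regulators of the Cd8 locus in T cells or of the fate of cDC1 and pDC had 4 higher and 3 lower genes in NOD cDC1, 6 higher and 3 lower in cDC2, 10 higher and 8 lower in moDC, and 2 higher and 0 lower in monocytes (edgeR). The shares over all genes were 20.4% in cDC1, 11.8% as higher and 10.2% as lower in cDC2, 30.4% in moDC and 15.3% in monocytes. Against these, the cDC1 count was not far higher, the cDC2 and moDC counts were higher and the monocyte count was lower. Those lower in cDC1 were Runx1, at 42.7 CPM in NOD and 58.0 CPM in B6g7 (-0.41 ± 0.11, SE, edgeR, adjusted p = 0.0035), Patz1, a repressor of Cd8 in thymocytes (-0.53 ± 0.17, adjusted p = 0.017), and Bcl11a, at 70 CPM in NOD and 113 CPM in B6g7 (-0.66 ± 0.08, adjusted p = 9.50e-09). Those higher in cDC1 were Bcl11b, Gata3, Ets1 and Lef1, all of which T cells express, and of these Bcl11b and Lef1 are also on the T cell marker list. Runx3, which acts on the Cd8 enhancers in T cells, did not pass in cDC1 (0.01 ± 0.10, SE, edgeR, adjusted p = 0.97) and fell in moDC, at 55 CPM in NOD and 86.0 CPM in B6g7 (-0.66 ± 0.10, adjusted p = 1.52e-06). In the Rag1-/- set edgeR called 0 of 20 in cDC1, cDC2 or moDC, where 1.67%, 2.34% and 1.49% of all genes were called. There 3, 4 and 6 of the list had an unadjusted p under 0.05, limma called 1 in each and DESeq2 called 1, 3 and 5.

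As a description, Tcf4 and Irf8 were close between strains in pDC, while some other regulators and some lymphoid genes were not. Tcf4, which specifies pDC, averaged 1010 CPM in NOD and 1027 CPM in B6g7 pDC, and Irf8 3108 CPM in NOD and 3381 CPM in B6g7. Runx3 averaged 38.1 CPM in NOD and 37.5 CPM in B6g7. In Rag1-/- pDC Runx3 was at 26.3 ± 4.5 CPM in NOD and 49.7 ± 3.13 CPM in B6 (SD, n = 3 each). Nfil3 averaged 30.2 CPM in NOD and 14.8 CPM in B6g7 pDC, with every NOD library higher. Runx2 averaged 420 CPM in NOD and 483 CPM in B6g7 pDC, with every NOD library lower. For both, the Rag1-/- groups overlapped. Spib averaged 282 CPM in NOD and 285 CPM in B6g7 pDC. In Rag1-/- pDC it averaged 294 CPM in NOD and 461 CPM in B6, with overlap. Id2, the antagonist of Tcf4, averaged 25.3 CPM in NOD and 59.3 CPM in B6g7 pDC, and 89.6 CPM in NOD Rag1-/- and 118 CPM in B6 Rag1-/- pDC, where the groups overlapped. Ly6d, a surface protein of lymphoid progenitors and pDC, was at 520 ± 174 CPM in NOD and 5568 ± 701 CPM in B6g7 pDC, and at 222 CPM in NOD Rag1-/- and 7433 CPM in B6 Rag1-/- pDC. Dntt, the terminal transferase of lymphocyte progenitors, was at 141 ± 18.4 CPM in NOD and 313 ± 24.1 CPM in B6g7 (SD, n = 3 each), and at 88.4 CPM in NOD Rag1-/- and 224 CPM in B6 Rag1-/-. Ly6d and Dntt were lower in every NOD pDC library than in every control library of both sets. Other lymphoid genes did not separate in that way in both sets. Il7r averaged 325 CPM in NOD and 232 CPM in B6g7 pDC, with every NOD library higher, and 213 CPM in each of the Rag1-/- groups. Cd7 averaged 1541 CPM in NOD and 1097 CPM in B6g7 pDC, and 922 CPM in NOD Rag1-/- and 1205 CPM in B6 Rag1-/- pDC, which overlapped. Ptcra averaged 48.2 CPM in NOD and 17.8 CPM in B6g7 pDC, and 23.8 CPM in NOD Rag1-/- and 12.1 CPM in B6 Rag1-/- pDC, with overlap in both. Blnk averaged 541 CPM in NOD and 544 CPM in B6g7 pDC, and 367 CPM in NOD Rag1-/- and 452 CPM in B6 Rag1-/- pDC, also with overlap. Outside pDC, of the 6 tested lymphoid genes 1 was higher and 1 lower in NOD cDC1, 2 were higher in cDC2, 1 was higher and 2 lower in moDC, and 1 was lower in monocytes (edgeR). The shares over all genes were 20.4% in cDC1, 11.8% as higher in cDC2, 30.4% in moDC and 15.3% in monocytes. In the Rag1-/- set edgeR called 0 of 7 in cDC1, cDC2 and moDC, where 1.67%, 2.34% and 1.49% of all genes were called. There 1, 4 and 1 of the list had an unadjusted p under 0.05, limma called 1, 0 and 0, and DESeq2 called 1, 0 and 0.

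Over the 18 group means of log2 CPM, the genes most like Cd8a among 11570 genes were Serpinf1 (Pearson r = 0.960), Cacnb2 (0.947), Clec9a (0.942) and Krcc1 (0.938), followed by Ik, Pank1, Fmnl2 and Nagk. Those most like Cd8b1 were Gm45914 (0.941), Mrps34 (0.936), Cnpy2 (0.934) and Tm2d3 (0.934), followed by Eef2kmt, Rpgrip1, Cyb561d2 and Jtb, and Cd8a and Cd8b1 correlated at 0.669. Group means share libraries, depth and sort, and these values are descriptions. Clec9a, a receptor of cDC1 for dead cells, was lower in NOD pDC, as Cd8a was, at 91.1 ± 0.836 CPM in NOD and 160 ± 7.79 CPM in B6g7 pDC (SD, n = 3 each). Ik and Krcc1 were also lower on average, Ik at 162 CPM in NOD and 180 CPM in B6g7 pDC and Krcc1 at 80.9 CPM in NOD and 94.1 CPM in B6g7 pDC, and Serpinf1 was at 39.1 CPM in NOD and 40.5 CPM in B6g7 pDC.

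Within the 12 pDC libraries, where strain is the main contrast, Cd8a was most like Nbl1 (0.966), Ltb (0.955), Prcp (0.954), Ly6g5b (0.950) and Gm15326 (0.949), then Cd8b1 (0.948), Clec9a and Atp6v1d. Cd8b1 was most like Il11ra1 (0.988), Rpgrip1 (0.981), Gm11346 (0.980), Apol7c (0.978) and Scrn1 (0.977), then Trim12a, Gm15326 and 2610035D17Rik. Il11ra1, a receptor for interleukin-11, was at 3.85 CPM in NOD and 91.5 CPM in B6g7 pDC, and at 3.40 CPM in NOD Rag1-/- and 56.3 CPM in B6 Rag1-/- pDC. Rpgrip1 was at 18.1 CPM in NOD and 126 CPM in B6g7 pDC, and at 11.3 CPM in NOD Rag1-/- and 156 CPM in B6 Rag1-/- pDC. Like Cd8b1, both were lower in every NOD pDC library than in every control library. Both were picked for their correlation with Cd8b1 over these same libraries, so this order follows from the choice. Outside pDC the likeness of Il11ra1 to Cd8b1 differed between cell types. Il11ra1 fell in NOD cDC1 (-2.25 ± 0.28, SE, edgeR, adjusted p = 3.34e-08), where Cd8b1 fell too. It also fell in NOD cDC2 (-2.95 ± 0.33, SE, edgeR, adjusted p = 1.52e-09) and moDC (-2.29 ± 0.31, adjusted p = 1.68e-07), where Cd8b1 was higher in NOD. In Rag1-/- cDC1 and cDC2 Il11ra1 fell (edgeR, adjusted p = 0.0038 and 7.98e-05), and Cd8b1 was lower on average but did not pass.

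The measured neighbours of the pair on chromosome 6 did not show a pDC difference of that size. Krcc1, upstream of Cd8b1, was at 80.9 CPM in NOD and 94.1 CPM in B6g7 pDC (log2 change -0.19 ± 0.13). Downstream of Cd8a, Rmnd5a was at 63.4 CPM in NOD and 82.8 CPM in B6g7 pDC (-0.36 ± 0.13), and Rnf103 at 34.3 CPM in NOD and 27.4 CPM in B6g7 pDC (0.35 ± 0.18). In Rag1-/- pDC the log2 changes were -0.35 ± 0.21 for Krcc1 and -0.56 ± 0.30 for Rmnd5a, both with overlap, and 0.90 ± 0.28 for Rnf103, at 48.1 CPM in NOD Rag1-/- and 25.5 CPM in B6 Rag1-/-, with every NOD library higher. In the tested comparisons Krcc1 fell by 0.35 ± 0.09 in each of NOD cDC2 and moDC (SE, edgeR, adjusted p = 0.0031 and 0.0036), Rnf103 fell by 0.51 ± 0.13 in cDC1 (adjusted p = 0.0023), and Rmnd5a rose in monocytes by 0.49 ± 0.13 (adjusted p = 0.0044). Mir8112, which overlaps Krcc1, was at 0 or near it in all groups, and Gm1070, Gm38828, Gm30582 and Gm38830 were not analysed here.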

How the data were processed

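Per the labels, RNA of sorted spleen cells was amplified with SMART-seq v4 and sequenced. The authors deposited a table of expected counts per RefSeq transcript, from RSEM per the submitters' processing notes, which also name limma, and tables of log2 fold changes with adjusted p-values between strains. The values of the deposited count table sum to 12.8 M to 20.6 M per library and 53.8% of those above 0 are fractional, as in expected counts, although the sheet's name speaks of CPM. The aligner and genome build are not given in the labels or headers. Expected counts were summed per gene, after names were matched through RefSeq for 34710 of 35070 transcripts, and rounded. Levels are CPM scaled by TMM over all libraries, with factors of 0.649 to 1.323. For the fits, TMM factors were computed within each set. Strain contrasts were tested with edgeR 4.0.16 (quasi-likelihood, robust, R 4.3.3) on genes at 1 CPM or more in at least 3 libraries, with Benjamini-Hochberg adjustment and a threshold of 0.05. The fit of the 47 Rag-sufficient libraries had a mean per cell type and sort date and a strain effect per cell type (13413 genes, common dispersion 0.0490), and that of the 23 Rag1-/- libraries a mean per cell type and strain (13137 genes, common dispersion 0.196), with no date term because dates are only partly shared between strains. Transcript shares were tested with scipy 1.17.1 in libraries with at least 30 Cd8a counts. The members and gene lists were chosen with earlier results of these data known. Named genes are the members, the genes of the lists, the 8 most correlated genes per member among genes at 5 CPM or more in some group, and 4 neighbours on each side. The scripts were tested on simulated data. Alternatives were limma 3.58.1, DESeq2 1.42.0, other scalings and filters, date terms, single cell types, a replicate block and leaving out each library.

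Same-numbered Rag-sufficient libraries were sorted on the same date in cDC1 and cDC2, and their deviations from group means correlated at 0.43 to 0.55 in cDC1 and 0.40 to 0.59 in cDC2, but at no more than 0.12 within a date. In moDC numbers 1, 2, 4 and 5 shared a date (0.44 to 0.52, and at most 0.14 within it) and number 3 did not (-0.36). The date is in the model. Rag1-/- cDC1 numbers also shared dates (0.13 to 0.29). In Rag-sufficient pDC and monocytes, each sorted on a single date, same-numbered libraries correlated at -0.08 to 0.02, and in the other Rag1-/- cell types at -0.67 to 0.04, so there the numbers did not pair the libraries.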

Additional observations from a re-analysis of the deposited data

Results flagged for a closer look

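A library far from the others was looked for in 21 combinations of a measure and a group of 4 to 10 libraries. The measures were the levels of both genes, the transcript share and the subunit ratio, so the same libraries entered several checks. Of the 21 combinations 2 stood out, where chance marks about 1 in 20. Cd8b1 in B6g7 cDC1 replicate 2 was at 53.3 CPM, against a median of 17.1 CPM in its group, and Cd8a in B6g7 moDC replicate 1 was at 24.7 CPM, against a median of 5.77 CPM. Without any 1 library, the Cd8b1 change in cDC1 stayed between -1.69 and -1.27 and the Cd8a change in moDC between 1.09 and 1.65, and both kept passing in edgeR.

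The strain effect on the genes differed between cell types by the test of the difference itself (edgeR). For Cd8b1 the effect in cDC1 was below that in cDC2 by a log2 difference of -3.68 and below that in moDC by -3.62. For Cd8a the effect in cDC1 was below that in moDC by -1.62, and this call was lost with limma and with the replicate block. T cell transcripts, higher in NOD cDC2 and moDC, are given beside these values in the results above, and their part in the differences was not tested.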

How the results depend on the processing

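Of 190 comparisons of a member value or a test of a difference with its value under another setting, 173 kept direction and side of the threshold, and the cause of the others was not tested. The Cd8b1 change in cDC1 was -1.46 with limma (adjusted p = 0.088), -1.51 with no date term (adjusted p = 0.11), and -1.47 and -1.58 on the single dates (adjusted p = 0.34 and 0.13). The Cd8b1 change in cDC2 was 2.35 and 1.97 on the single dates (adjusted p = 0.18 and 0.12) and 0.58 without the 3 NOD libraries of highest T cell marker sum (adjusted p = 0.76), which also had the highest Cd8b1, so a smaller change followed from their choice. In moDC, Cd8a was at 0.93 with no date term (adjusted p = 0.28) and 0.57 on 10.26.2015 alone (adjusted p = 0.40), and Cd8b1 at 1.93 on that date (adjusted p = 0.24). Fitting cDC1 alone brought Cd8a, at -0.34, past the threshold (adjusted p = 0.00034). The Cd8a difference between cDC1 and moDC was -1.71 with limma (adjusted p = 0.093) and -1.47 with the replicate block (adjusted p = 0.088). The Cd8b1 difference between cDC2 and moDC, 0.06, turned to -0.0021 without scaling, -0.18 with limma and -0.29 with the block. Cd8a in Rag1-/- pDC was at -1.83 without scaling. The block changed no other member's call.

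Leaving out 1 library at a time gave the following ranges. Cd8a in cDC2 lay between 0.43 and 0.97 (adjusted p down to 0.04), Cd8b1 in cDC2 between 1.71 and 2.66 (up to 0.073), Cd8b1 in monocytes between -1.16 and 1.42 (turned without NOD replicate 2), the Cd8b1 difference between cDC2 and moDC between -0.39 and 0.56 (turned in 11 of 23 refits), and the moDC transcript share between 7.5 and 19.7 points (adjusted p down to 0.04). Among values that did not pass, Cd8b1 in Rag1-/- mice lay between -2.59 and -0.34 in cDC1 and between -6.70 and -1.54 in cDC2 (-6.70 with only 0 counts left in NOD), Cd8a between -2.27 and -0.56 in Rag1-/- cDC2 and 0.49 and 2.04 in monocytes, and the cDC2 transcript share between -21.3 and -2.2 points. The pDC changes lay between -5.15 and -4.77 for Cd8b1 and between -1.84 and -1.43 for Cd8a in Rag-sufficient mice, and between -5.94 and -5.34 and between -2.61 and -1.99 in Rag1-/- mice.

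Counts of genes called moved by over 1.5 times in some fits. With no date term cDC1 had 1141 in place of 2739 genes, cDC2 1290 in place of 2949 and moDC 1637 in place of 4071; on 10.26.2015 alone they had 1371, 1562 and 2385. Without the 3 NOD libraries cDC2 had 1774, and moDC fitted alone 2690. The block gave 1085 in place of 1684 in pDC and 1227 in place of 2057 in monocytes. In the Rag1-/- set, DESeq2, the block and a single cell type gave 491, 88 and 510 in place of 219 in cDC1, 703, 115 and 565 in place of 307 in cDC2, and 1675, 114 and 85 in place of 602 in pDC; in moDC, limma, DESeq2 and the block gave 321, 500 and 38 in place of 196. Without 1 library the Rag1-/- counts were 118 to 159 in cDC1, 179 to 325 in cDC2, 81 to 147 in moDC and 246 to 3183 in pDC. A fit of the cell type alone gave no member value in monocytes, nor for Cd8b1 in Rag1-/- cDC2 and moDC. Cd8b1 outside pDC and cDC1 rests on few counts.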
